A study of Homo sapiens with 6 samples.

Results

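The genes examined encode the distal appendages of the mother centriole and the kinase that they recruit. The set was defined by name as CEP83, CEP89, SCLT1, FBF1, CEP164, LRRC45, ANKRD26 and TTBK2, and each matched 1 row of the 58735 genes in the count table. All 8 genes passed the filter on low counts and were tested among 16591 genes. The members were chosen by function and not by their values here, although results for FBF1 and LRRC45 in these libraries were known when the set was drawn up.

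The 6 RNA-seq libraries were made from RPE-1 cells, an immortalised human retinal pigment epithelial line that carries GFP-tagged CETN2 as a centriole marker and PLK4 under an rtTA doxycycline-inducible promoter. PLK4 is the kinase that starts centriole duplication. The siSON group, 3 libraries, received an siRNA against SON, a nuclear speckle protein needed for the splicing of many introns. The siControl group, 3 libraries, received a scramble siRNA. Both groups had doxycycline, at 1 µg/mL, to induce PLK4, so neither group shows the cells without extra PLK4, and the labels do not say whether the replicates came from separate cultures. P-values therefore measure the spread between these libraries, which may be technical.

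Distal appendages are blade-like projections arranged around the end of the older centriole. They dock that centriole to a vesicle or to the plasma membrane and so are needed for a primary cilium, the single sensory projection that RPE-1 cells form when they stop dividing. CEP83 sits at the root and brings in SCLT1 and CEP89, SCLT1 is needed for CEP164, and FBF1, LRRC45 and ANKRD26 occupy further positions in the same structure. CEP164 recruits TTBK2, a kinase whose activity leads to removal of the CP110 cap from the centriole end.

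Sequences at exon junctions are shown for the 2 members with the largest falls and the 2 that were not called, because SON acts in splicing and the members differ in base composition. Each run holds the last 30 bases of one exon and the first 30 of the next, 5′ to 3′, in the spliced reference transcript (GENCODE 29, GRCh38), across the shortest intron within the coding part. Capitals mark the last 2 bases of the upstream exon and the first base of the downstream exon, which read AGG at a junction that matches the exonic part of the donor consensus and starts the next exon with G. The FBF1 run spans intron 26 (chr17:75914051-75914121, minus strand, 71 bases) and the LRRC45 run spans intron 15 (chr17:82030239-82030318, plus strand, 80 bases). The TTBK2 run spans intron 8 (chr15:42810740-42811687, minus strand, 948 bases) and the CEP89 run spans intron 10 (chr19:32926274-32926933, minus strand, 660 bases).
FBF1: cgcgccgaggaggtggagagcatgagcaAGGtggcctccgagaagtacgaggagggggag
LRRC45: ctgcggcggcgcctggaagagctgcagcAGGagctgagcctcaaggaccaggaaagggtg
TTBK2: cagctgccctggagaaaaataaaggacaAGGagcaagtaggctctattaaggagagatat
CEP89: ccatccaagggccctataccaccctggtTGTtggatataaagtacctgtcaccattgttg
GC made up 66.7% of the FBF1 run and 66.7% of the LRRC45 run, against 43.3% for TTBK2 and 48.3% for CEP89. The introns themselves were not used here.

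Library totals ran from 54572365 to 69764836 counts. SON had 283.9 to 312.7 CPM (counts scaled to a common TMM-adjusted library size) in siControl and 65.0 to 69.96 CPM in siSON, so that 22.8% of the control level remained (log2 fold change -2.14, SE 0.06, edgeR adjusted p 6.78e-10). Replicate 1 of each group stood apart from the other replicates, with chi-square values, divided by their degrees of freedom, of 18.3 to 26.1 in pairs that include it and 7.16 and 7.18 in the pairs without it, and results without both libraries numbered 1 are given below. Of 6 markers of retinal pigment epithelium, TYR had 0 counts, RPE65 and RLBP1 had at most 18 counts in a library, and 3 were tested. PMEL fell (2.07 to 0.200 CPM, log2 fold change -3.36, edgeR adjusted p 3.72e-07), and BEST1 and MITF rose (0.62 and 0.52, edgeR adjusted p 0.00165 and 3.48e-05), so the summed level was 31.4 to 32.5 CPM in siControl and 40.2 to 46.3 CPM in siSON. The epithelial keratins KRT8 and KRT18 both rose (0.34 and 1.48, edgeR adjusted p 0.000273 and 2.70e-09), from a sum of 764.2 to 863.2 CPM to one of 1331 to 1392 CPM. Of 4 markers of other cell types, CD3E and SOX10 had 0 counts in all libraries. PTPRC, of leukocytes, and PECAM1, of endothelium, fell from low levels (-2.29 and -1.11, edgeR adjusted p 4.40e-05 and 0.0190), with a sum of 2.23 to 3.27 CPM in siControl and 0.531 to 1.19 CPM in siSON.

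After SON knockdown 6 of the 8 distal appendage genes fell and none rose. The cell type markers above moved between the same groups, and their part in these falls was not tested. Among all genes tested 36.5% were called lower, 35.2% higher and 71.7% in either direction at an edgeR adjusted p under 0.05. FBF1 and LRRC45 fell furthest, to 5.48% and 14% of the control mean. ANKRD26, SCLT1 and CEP164 fell to between 51.6% and 62.3%, and CEP83 to 74.6%. CEP89 and TTBK2 were not called. The siSON and siControl values did not overlap, with siSON lower, for the same 6 genes, an outcome seen for 38.2% of all genes tested. Counting CEP89 they were separate for 7 of 8 genes in either direction, beside 75.1% of all genes. The falls of FBF1 and LRRC45 were at least 2-fold, as were those of 20.5% of all genes tested, and 0 of the 8 genes rose at least 2-fold, beside 8.72%. The median log2 fold change of the 8 genes was -0.75, beside -0.03 for all genes tested.

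**Figure D1:**
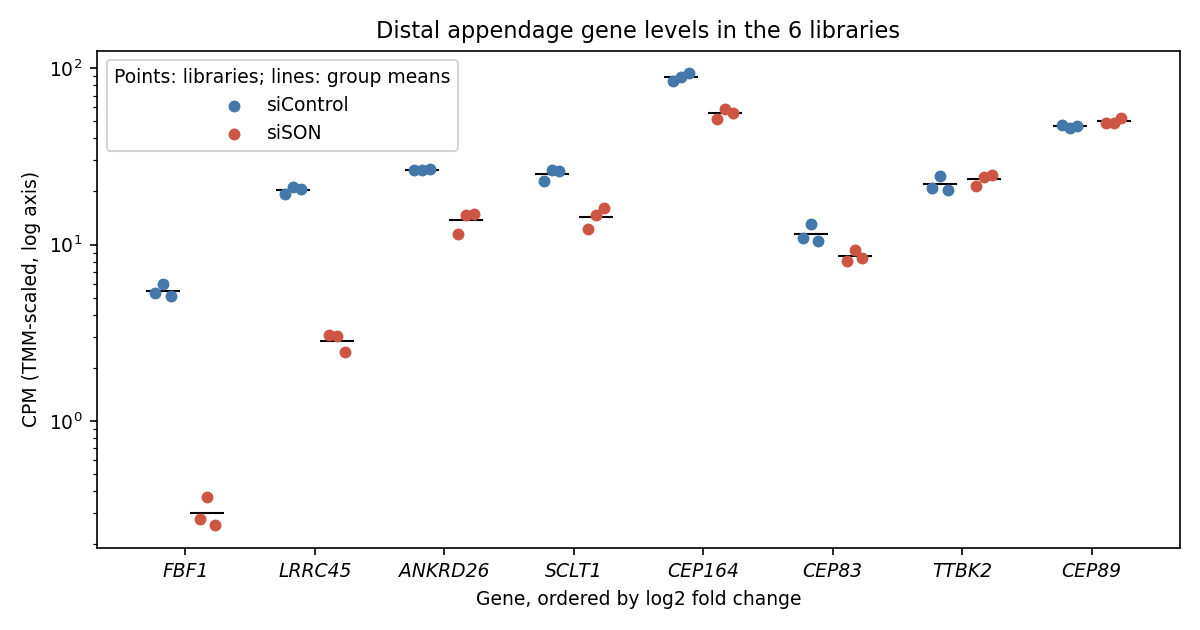
Level of each distal appendage gene in the 6 libraries, as TMM-scaled CPM on a log axis; each point is a library and each line a group mean of 3 libraries. The 3 siSON values lie below the 3 siControl values for FBF1, LRRC45, ANKRD26, SCLT1, CEP164 and CEP83, overlap them for TTBK2 and lie above them for CEP89.

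CEP83, the root component needed for assembly of the other blades (ENSG00000173588; GRCh38 chromosome 12, 94306449 to 94459988, minus strand, 17 exons), was at 10.9, 13.1 and 10.4 CPM in the siControl libraries, in the order of their replicate numbers. In the siSON libraries it was at 8.03, 9.27 and 8.40 CPM. All 3 siSON libraries lay below all 3 siControl libraries, with a gap narrower than the range within siControl. The means were 11.5 ± 1.43 and 8.57 ± 0.636 CPM (SD, n = 3 per group), which gave a log2 fold change of -0.42 (SE 0.11, edgeR adjusted p 0.00555). This was the smallest fall of the 6, and it was not past the threshold under cyclic loess normalization (-0.21, limma adjusted p 0.115). PLXNC1, which shares 2.56% of the CEP83 exon bases from the other strand, fell as well (log2 fold change -0.99, edgeR adjusted p 8.23e-05).

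SCLT1 links CEP83 to CEP164 in the assembly order (ENSG00000151466; chromosome 4, 128864921 to 129093607, minus strand, 21 exons). It had 22.9, 26.4 and 26.3 CPM in the siControl libraries and 12.2, 14.8 and 16.1 CPM in the siSON libraries. Its groups were well separated, and siSON replicate 1 was the lowest library. The means were 25.2 ± 1.97 and 14.3 ± 1.98 CPM (SD, n = 3 per group), giving a log2 fold change of -0.81 (SE 0.11, edgeR adjusted p 3.72e-05). Exons of JADE1 and C4orf33 on the other strand share 3.71% and 3.51% of the SCLT1 exon bases, and these neighbours also fell, with log2 fold changes of -0.42 and -1.70 (edgeR adjusted p 0.00470 and 2.08e-07).

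CEP164, the component that recruits TTBK2 and membrane-docking factors (ENSG00000110274; chromosome 11, 117314557 to 117413268, plus strand, 33 exons), was the most counted member in siControl. The siControl libraries had 84.4, 89.1 and 93.6 CPM and the siSON libraries 51.5, 58.8 and 56.1 CPM. No siSON value came near the siControl range. The means were 89.05 ± 4.60 and 55.5 ± 3.67 CPM (SD, n = 3 per group), giving a log2 fold change of -0.68 (SE 0.07, edgeR adjusted p 3.27e-06).

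ANKRD26 holds PIDD1, the sensor of surplus centrioles, at the distal appendages (ENSG00000107890; chromosome 10, 26991914 to 27100498, minus strand, 34 exons). Its siControl values of 26.3, 26.3 and 27.0 CPM were nearly equal. The siSON values were 11.5, 14.7 and 14.9 CPM, with replicate 1 the lowest. The means were 26.5 ± 0.373 and 13.7 ± 1.88 CPM (SD, n = 3 per group), giving a log2 fold change of -0.96 (SE 0.10, edgeR adjusted p 5.45e-06). The 4 pseudogenes named after ANKRD26 had at most 7 counts in any library, and how reads that map to several places were treated is not given in the sources used here.

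FBF1, a component of the gap between the blades that takes part in gating the cilium (ENSG00000188878; chromosome 17, 75909574 to 75941140, minus strand, 30 exons), had 370, 380 and 384 counts in the siControl libraries. The siSON libraries had 16, 19 and 13 counts. In CPM these were 5.30, 5.98 and 5.14 against 0.276, 0.368 and 0.256. Every siSON library lay more than 10-fold below every siControl library. The means were 5.47 ± 0.444 and 0.300 ± 0.0601 CPM (SD, n = 3 per group), giving a log2 fold change of -4.18 (SE 0.19, edgeR adjusted p 1.24e-08). Of all genes tested 1.00% were called lower with a fall at least as large. The 48 counts of the 3 siSON libraries together have an exact 95% Poisson interval of 35.4 to 63.6, which allows for counting error alone. It leaves out the spread between libraries and any PCR copies of a molecule. The annotated read-through gene AC087289.3 lies on the same strand and shares 49.6% of the FBF1 exon bases. It had 6, 1 and 6 counts in siControl and 0 in every siSON library. How reads in shared exons were assigned is not given in the sources used here, so the absolute level of FBF1 is uncertain in both groups.

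LRRC45, a protein of the distal appendages and of the fibres that link centrioles (ENSG00000169683; chromosome 17, 82023302 to 82031151, plus strand, 17 exons), was at 19.5, 21.1 and 20.5 CPM in the siControl libraries. It was at 3.07, 3.02 and 2.46 CPM in the siSON libraries. The groups were far apart, with siSON replicate 3 the lowest. The means were 20.4 ± 0.813 and 2.85 ± 0.340 CPM (SD, n = 3 per group), giving a log2 fold change of -2.83 (SE 0.11, edgeR adjusted p 3.78e-09). Falls of at least this size were called for 3.72% of all genes tested. CENPX, which starts on the other strand and shares 43 exon bases with LRRC45, fell from 34.8 ± 1.051 to 14.8 ± 0.527 CPM (SD, n = 3 per group; log2 fold change, -1.24, edgeR adjusted p 4.94e-08).

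CEP89, also called CEP123, is an outer component whose loss impairs ciliary vesicle formation (ENSG00000121289; chromosome 19, 32875925 to 32971991, minus strand, 19 exons). It had 47.6, 45.7 and 47.2 CPM in siControl and 48.95, 49.2 and 52.2 CPM in siSON. The siSON values lay just above the siControl values without overlap, which was so for 36.9% of all genes tested. The means were 46.9 ± 0.993 and 50.1 ± 1.83 CPM (SD, n = 3 per group), which gave a log2 fold change of 0.10 (SE 0.06, edgeR adjusted p 0.165). Its sign depended on the scaling, with -0.10 when library size alone was used and -0.035 under cyclic loess normalization.

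TTBK2 (ENSG00000128881; chromosome 15, 42738734 to 42920809, minus strand, 15 exons) had 21.1, 24.6 and 20.5 CPM in siControl and 21.5, 24.2 and 24.6 CPM in siSON. The ranges overlapped. The means were 22.1 ± 2.24 and 23.5 ± 1.69 CPM (SD, n = 3 per group), and the log2 fold change of 0.09 (SE 0.09) was not past the threshold (edgeR adjusted p 0.401). It was -0.11 when library size alone was used. The lincRNA AC090510.1 on the other strand shares 16.5% of the TTBK2 exon bases and had 5 to 30 counts per library. The pseudogene KRT8P50 shares 9.71% and had 0 counts.

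**Figure D2:**
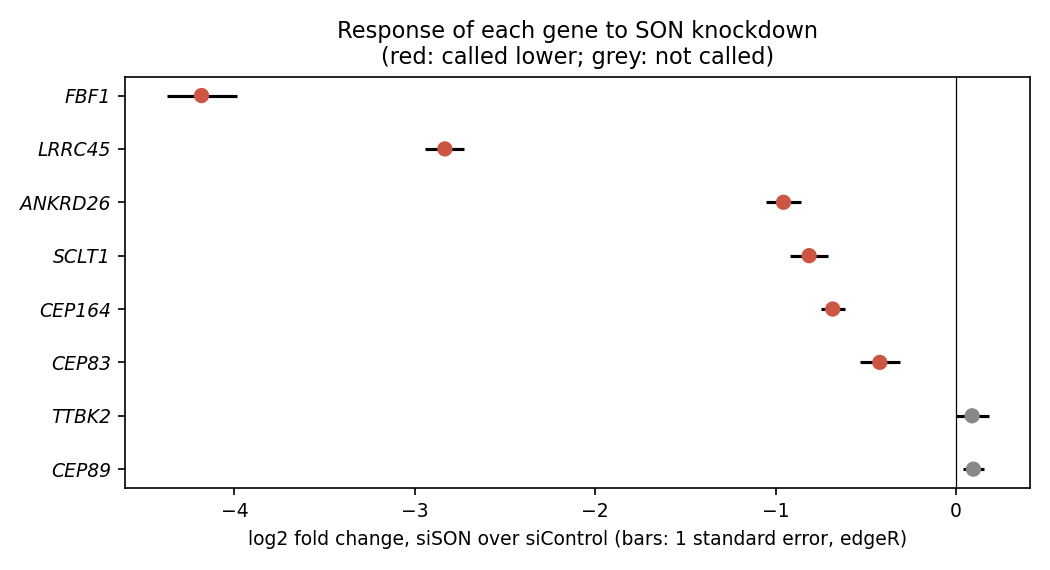
Log2 fold change of each gene, siSON over siControl, with 1 standard error on each side, from edgeR's quasi-likelihood fit of 3 libraries against 3; red points were called lower and grey points were not called. The values run from -4.18 for FBF1 to 0.10 for CEP89.

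The members did not all fall by the same amount. Going up the order of fold changes, the log2 ratio of each gene to the next was computed within every library. The fold changes set this order, so a lower mean ratio in siSON was fixed in advance at each step. The ratios therefore describe the size and spread of the steps and are no separate support. Between FBF1 and LRRC45 it was -1.90 ± 0.0918 in siControl and -3.26 ± 0.219 in siSON (SD, n = 3 per group). Between LRRC45 and ANKRD26 it went from -0.38 ± 0.058 to -2.26 ± 0.344, the widest step of the series. For CEP83 and TTBK2 it was -0.94 ± 0.0333 in siControl and -1.45 ± 0.0873 in siSON. These 3 ratios did not overlap between groups, nor did those of ANKRD26 to SCLT1 and of CEP164 to CEP83, whose means differed by -0.14 and -0.27 (siSON minus siControl). The groups overlapped for SCLT1 to CEP164 and for TTBK2 to CEP89. How often the ratios of other gene pairs stay separate was not computed, and 75.1% of single genes tested were separate in either direction. Separate ratios are therefore not read as a trait of the members. With 3 libraries against 3 a permutation test cannot go below p = 0.1, and none was run on these ratios.

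Levels of different genes were compared as CPM per kilobase of exon, with lengths from the union of annotated exons. The order, places and shares below rest on that choice of length. CEP164 has 12.9 kb of union exon and a reference transcript of 5630 bases, and CEP89 has 9.23 kb and 5678 bases. By reference transcript CEP164 would stay ahead of CEP89 in siSON, with the higher mean CPM (55.5 against 50.1) and the shorter length. In siControl the order was CEP164 (6.90 ± 0.357), LRRC45 (5.65 ± 0.226), CEP89 (5.07 ± 0.107), ANKRD26 (3.34 ± 0.047), SCLT1 (3.04 ± 0.237), TTBK2 (1.71 ± 0.173), CEP83 (1.66 ± 0.207) and FBF1 (0.813 ± 0.066), each as CPM per kb with SD over 3 libraries. Only TTBK2 and CEP83 overlapped among neighbours in this order. The separation of FBF1 from CEP83 is uncertain, because AC087289.3 shares 49.6% of the FBF1 exon bases on the same strand. In siSON CEP89 came first with 5.43 ± 0.198 CPM per kb, ahead of CEP164 with 4.30 ± 0.284. TTBK2 (1.82 ± 0.131), SCLT1 (1.73 ± 0.239) and ANKRD26 (1.72 ± 0.237) followed, each overlapping its neighbour, and then CEP83 (1.24 ± 0.0918). LRRC45 moved from the second to the seventh place, at 0.790 ± 0.0941 CPM per kb, and FBF1 remained last at 0.0446 ± 0.00893. By reference transcript (2701 bases for LRRC45, 3055 for SCLT1) LRRC45 would come after CEP89 and SCLT1 in siControl, and so would pass fewer genes. The summed level of the 8 genes was 28.2 CPM per kb in siControl and 17.1 in siSON, 60.6% of the control. CEP89 made up 18.0% of that sum in siControl and 31.8% in siSON, and LRRC45 20.03% and 4.63%. In bulk RNA a change in every cell and a change in some of the cells cannot be told apart.

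**Figure D3:**
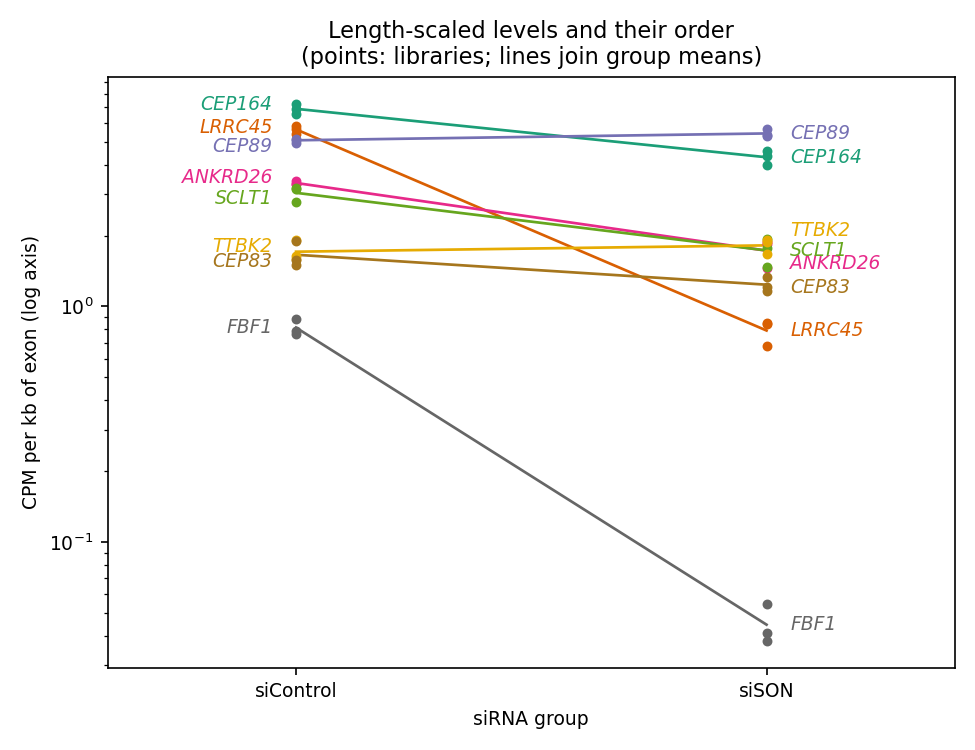
Length-scaled level of each gene in both groups, as CPM per kb of exon on a log axis; points are the 3 libraries of a group and lines join the group means. By union exon length LRRC45 crosses the lines of 5 other genes, from 5.65 to 0.790, CEP89 changes place with CEP164, and FBF1 lies lowest in both groups. By the length of the reference transcript CEP89 and CEP164 would not change place, and LRRC45 would cross fewer lines.

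The genes also differ in structure, which the choice of members did not use. LRRC45 is compact: its 16 introns have a median length of 248 bases, 15 of them are under 500 bases, and its reference transcript is 66.9% GC. FBF1 has 29 introns with a median of 577 bases, 12 of them under 500, and 62.0% GC. CEP164 lies between, with 32 introns, a median of 914 bases, 11 under 500, and 56.6% GC. ANKRD26 (median intron 2162 bases, 37.0% GC), CEP83 (2790 bases, 39.2% GC) and SCLT1 (4248 bases, 41.2% GC) have longer median introns than CEP164 and AT-rich transcripts. Of tested genes with introns, 55.2% had a shorter median intron than ANKRD26, 64.85% than CEP83 and 77.67% than SCLT1. CEP89 (4772 bases, 50.5% GC) and TTBK2 (8229 bases, 40.8% GC), which were not called, have the longest median introns of the 8. Across the 8 genes Spearman's rho of the log2 fold change was 0.83 with the median intron length, -0.40 with GC content and 0.71 with the mean log2 CPM, given as a description, since genes are not independent replicates and all values come from the same 6 libraries.

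The same properties were set beside all 14678 tested genes with annotated introns, where rho was 0.21 with the median intron length, -0.19 with GC content and, over all 16591 genes, 0.30 with the mean log2 CPM. In the 3668 genes with the shortest median introns, up to 822.5 bases, which include FBF1 and LRRC45, 55.5% were called lower, and 28.7% in the 3670 with the longest, which include CEP89, SCLT1 and TTBK2. In the 3670 genes with the highest GC content, again with FBF1 and LRRC45, 54.8% were called lower, against 32.1% in the 3670 with the lowest, which include CEP83, SCLT1, ANKRD26 and TTBK2. The share was 27.7% in the 3669 genes next above the lowest and 36.5% in the 3669 above those, so it did not rise steadily with GC content. The AG and G marked by capitals in the junctions above were found at 8 of 16 LRRC45 junctions, 42.9% of TTBK2, 40.6% of CEP164, 37.9% of FBF1, 31.2% of CEP83, 30.3% of ANKRD26, 27.8% of CEP89 and 5 of 20 SCLT1 junctions, beside 27.8% over all tested genes. TTBK2, which was not called, had the second highest share after LRRC45, and no correlation of these shares with the fold changes was computed. The part of intron length, GC content and junction letters in the falls was not tested.

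**Figure D4:**
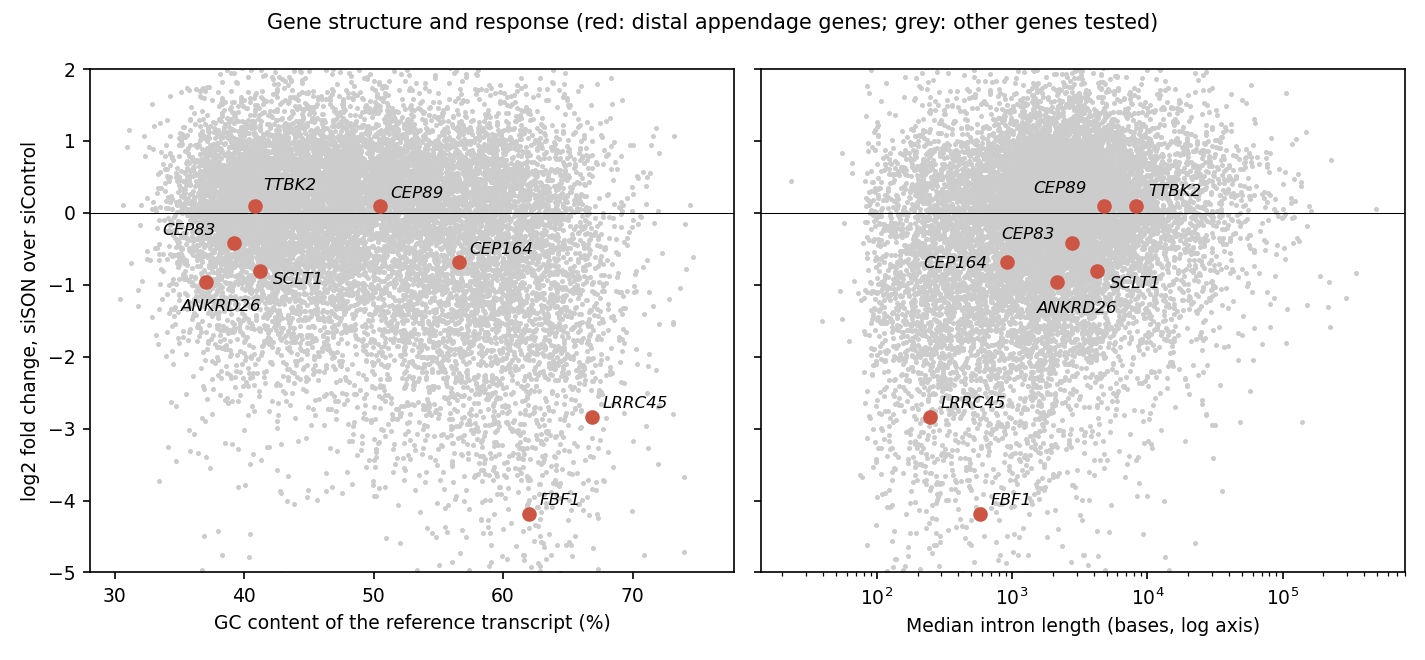
Log2 fold change (siSON over siControl) of each tested gene with introns against the GC content of its reference transcript (left) and its median intron length on a log axis (right); red points are the 8 distal appendage genes, and 277 of 14678 genes lie outside the vertical range of -5 to 2. FBF1 and LRRC45 lie at high GC content and short introns, and CEP89 and TTBK2 at the longest introns of the 8.

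Promoters are shown for FBF1 and LRRC45, which fell together, and for CEP89, which was not called. Each run covers 250 bases before to 50 after the gene start (RefSeq, GRCh38.p14), 5′ to 3′ on the gene's strand, and all 8 genes were found in that table. Capitals mark matches, on either strand, to 4 motifs: CCAAT, the NF-Y box; CCGGAAGT, an ETS site; the NRF1 palindrome, GCGCA followed directly by its reverse complement; and GTTGCNA, 1 side of the X-box that RFX factors bind in many cilium genes. No matches overlapped each other. The positions are chr17:75940993-75941292 (minus strand) for FBF1, chr17:82023055-82023354 (plus strand) for LRRC45 and chr19:32971909-32972208 (minus strand) for CEP89.
FBF1: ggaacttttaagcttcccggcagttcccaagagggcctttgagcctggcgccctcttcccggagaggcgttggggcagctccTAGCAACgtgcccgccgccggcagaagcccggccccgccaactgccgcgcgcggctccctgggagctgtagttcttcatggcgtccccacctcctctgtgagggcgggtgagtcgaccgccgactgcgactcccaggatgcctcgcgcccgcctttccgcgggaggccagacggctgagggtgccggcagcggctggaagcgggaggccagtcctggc
LRRC45: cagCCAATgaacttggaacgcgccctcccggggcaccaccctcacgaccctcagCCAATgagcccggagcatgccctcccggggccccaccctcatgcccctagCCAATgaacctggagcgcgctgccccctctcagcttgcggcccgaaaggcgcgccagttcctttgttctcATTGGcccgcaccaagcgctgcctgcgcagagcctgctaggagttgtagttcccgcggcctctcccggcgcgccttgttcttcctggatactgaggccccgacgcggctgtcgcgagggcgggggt
CEP89: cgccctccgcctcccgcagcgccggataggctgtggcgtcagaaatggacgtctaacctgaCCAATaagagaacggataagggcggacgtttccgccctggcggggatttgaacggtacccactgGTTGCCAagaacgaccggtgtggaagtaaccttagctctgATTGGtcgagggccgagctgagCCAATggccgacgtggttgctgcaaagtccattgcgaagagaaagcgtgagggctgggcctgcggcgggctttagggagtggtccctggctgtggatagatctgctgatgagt
The FBF1 promoter held 0 NF-Y boxes and 1 X-box side, that of LRRC45 held 4 NF-Y boxes and 0 X-box sides, and that of CEP89 held 3 NF-Y boxes and 1 X-box side. The NF-Y letters occur in 34.6% of all 35116 promoters of this length and the X-box side in 9.21%. The ETS letters occurred among the members only at CEP164 and the NRF1 letters only at ANKRD26 (4.14% and 1.24% of all promoters). FBF1 and LRRC45 shared none of the 4 motifs in these windows, and a link between motifs and the falls was not tested.

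Genes that act with the distal appendages were read from lists chosen by function. The counts in every list below stand beside 36.5% of all tested genes called lower, 35.2% higher and 71.7% in either direction. The assembly base, the proteins at the centriole end on which the appendages are built, held 8 genes tested, of which 2 fell, 1 rose and 5 were not called, with a median log2 fold change of -0.14 beside -0.03 for all genes. FOPNL, also called CEP20, rose from 23.8 ± 2.15 to 51.2 ± 3.23 CPM (SD, n = 3 per group; log2 fold change, 1.10, edgeR adjusted p 3.67e-07). KIAA0586, also called TALPID3, had a log2 fold change of -0.42 (edgeR adjusted p 0.000901). CEP120, named after its values were seen, had -0.27 (edgeR adjusted p 0.0131), and the call was lost without siControl replicate 3 (-0.24, edgeR adjusted p 0.0501). OFD1 and C2CD3, which are required for the appendages, were at -0.14 and 0.05 (edgeR adjusted p 0.176 and 0.461). This list depended on the scaling, with 7 of 8 genes called when library size alone was used.

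Other proteins reported at the distal appendages showed calls in both directions. Of 6 listed, 5 were tested, 3 fell and 1 rose, with a median log2 fold change of -0.19, and C3orf14 had 0 counts in all 6 libraries. RAB34, a GTPase of ciliary vesicles, fell from 100.6 ± 1.45 to 60.3 ± 4.89 CPM (SD, n = 3 per group; log2 fold change, -0.74, edgeR adjusted p 1.52e-06). KIZ rose from 6.22 ± 0.663 to 12.7 ± 1.44 CPM (SD, n = 3 per group; 1.03, edgeR adjusted p 1.14e-05). NCS1 was not called (-0.026, edgeR adjusted p 0.692). INPP5E, a ciliary phosphoinositide phosphatase that binds CEP164 and was named after its values were seen, had a log2 fold change of -0.66 (edgeR adjusted p 2.74e-05).

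Among 14 CEP164 partners and genes of membrane docking, 4 fell, 7 rose and 3 were not called, with a median log2 fold change of 0.20. DZIP1, which works with the CEP164 partner CBY1, fell from 93.5 ± 1.54 to 30.3 ± 1.282 CPM (SD, n = 3 per group; log2 fold change, -1.62, edgeR adjusted p 2.85e-09). RAB8A, the GTPase of ciliary membrane growth, rose from 80.5 ± 2.49 to 154.5 ± 7.09 CPM (SD, n = 3 per group; 0.94, edgeR adjusted p 6.31e-08). FAM92A and SNAP29 were at 0.09 and 0.13 (edgeR adjusted p 0.262 and 0.0504), and both were below 0 when library size alone was used.

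The cap that TTBK2 acts to remove gave 4 falls, 4 rises and 2 genes not called among 10, with a median log2 fold change of -0.21. USP33, which stabilises CP110, rose from 50.9 ± 2.001 to 111.8 ± 2.62 CPM (SD, n = 3 per group; log2 fold change, 1.14, edgeR adjusted p 1.69e-08). NEURL4 fell from 23.5 ± 1.302 to 5.68 ± 1.73 CPM (SD, n = 3 per group; -2.05, edgeR adjusted p 4.66e-06). The genes of the cap itself, named after their values were seen, went opposite ways, with -0.79 for CCP110 (edgeR adjusted p 3.28e-05) and 0.77 for CEP97 (edgeR adjusted p 1.76e-05). CCNF and CEP78 were not called (-0.24 and -0.21, edgeR adjusted p 0.161 and 0.0790). Without siSON replicate 3 both were called (CCNF -0.36, edgeR adjusted p 0.0424, and CEP78 -0.31, edgeR adjusted p 0.0136), and CEP78 also without siControl replicate 1 (-0.29, edgeR adjusted p 0.0319). All 10 genes of the list were called without both libraries numbered 1, and likewise with no low-count filter. Over 15 alternatives the outcome stayed the same in 9 for CCNF and in 7 for CEP78.

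ANKRD26 was set beside its PIDDosome partners. PIDD1 fell from 24.96 ± 1.46 to 18.7 ± 2.01 CPM (SD, n = 3 per group; log2 fold change, -0.41, edgeR adjusted p 0.00169). CASP2, the protease that PIDD1 activates, was called higher by a narrow margin (0.20, edgeR adjusted p 0.0482), and its groups overlapped. That call held in 1 of the 6 fits that each left out a library, the one without siSON replicate 1. Without siControl replicates 1, 2 and 3 in turn the edgeR adjusted p was 0.0844, 0.175 and 0.118, and without siSON replicates 2 and 3 it was 0.096 and 0.177. CRADD, the adaptor between them, was at 0.047 (edgeR adjusted p 0.739).

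Of the kinases listed beside TTBK2, its paralog TTBK1 was too low to be tested. PLK1 and NEK2, mitotic kinases that act on appendages and centrosomes, rose with log2 fold changes of 0.57 and 0.54 (edgeR adjusted p 0.000771 and 0.00498). PLK4, whose counts join the native and the inducible gene, had -0.36 (edgeR adjusted p 0.0143), and -0.22 without siSON replicate 1. CETN2, the tagged gene of the line, had 0.38 (edgeR adjusted p 5.89e-05), and -0.035 under cyclic loess normalization.

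The subdistal appendages, a second set of projections that anchor microtubules, served as the nearest structure for comparison. Of 10 listed genes 8 were tested, 6 fell, 1 rose and 1 was not called, with a median log2 fold change of -0.42. CCDC61 fell from 4.93 ± 0.607 to 0.136 ± 0.0694 CPM (SD, n = 3 per group; log2 fold change, -5.15, edgeR adjusted p 3.13e-08), further than FBF1. CEP170 had -0.56 (edgeR adjusted p 1.47e-06), and CNTRL was at -0.15 (edgeR adjusted p 0.451). Thus 6 of 8 tested genes were called lower in both sets, beside 36.5% of all genes tested. No difference between the sets was tested. KIF2A stands in this list and in that of the cap.

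**Figure D5:**
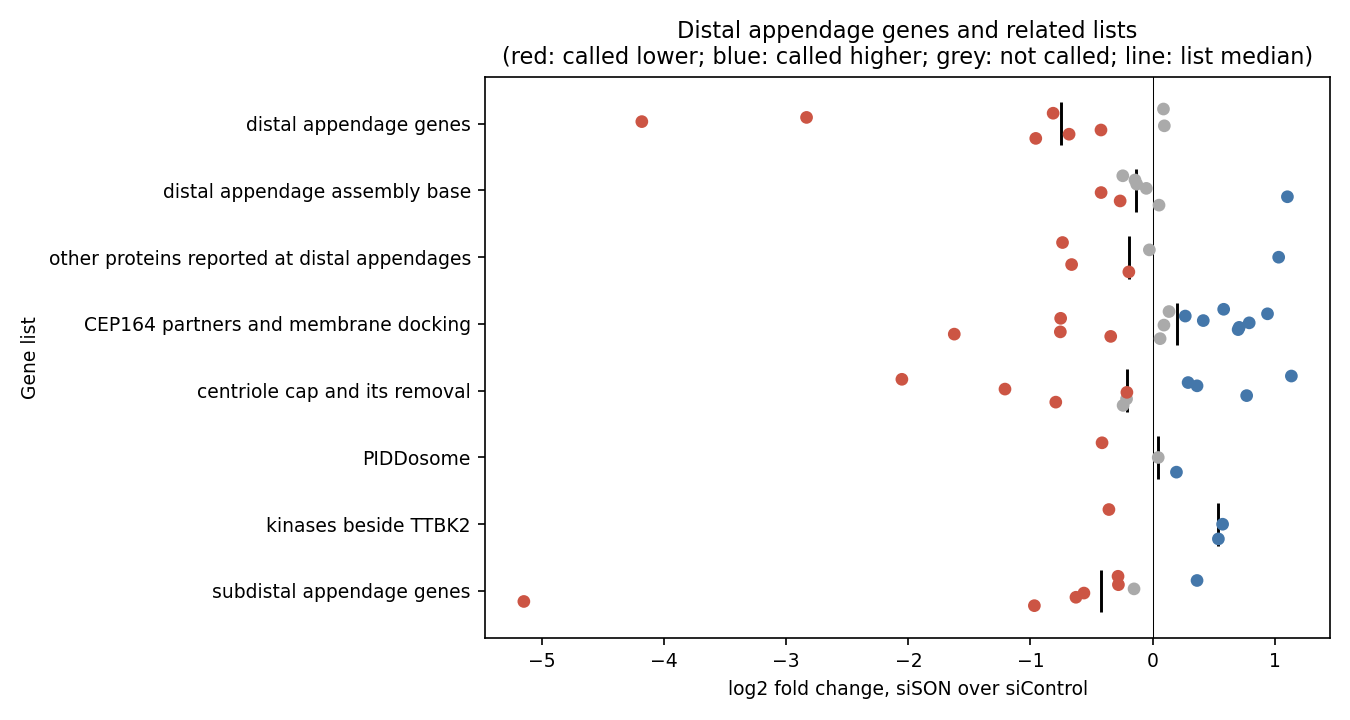
Log2 fold change, siSON over siControl, of every tested gene in the distal appendage set and in 7 related lists; red was called lower, blue higher and grey not called, and each black line is a list median. The medians run from -0.75 for the distal appendage genes to 0.54 for the kinases, and lists other than the distal appendage genes hold calls in both directions. The only call higher is CASP2 in the PIDDosome (edgeR adjusted p 0.0482) and KIF2A in the subdistal list, where 6 genes were called lower.

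Genes with the profile closest to the members at both ends of the range were found among 10892 protein-coding genes (10891 for CEP89) by the Euclidean distance of centred log2 CPM over the 6 libraries. For FBF1 these were PLD2, RGL3 and SLC35C2, at distances of 0.223, 0.257 and 0.282, with log2 fold changes of -4.02, -4.00 and -3.94. For CEP89 they were CTCF, POLDIP2 and HSPA14 (ENSG00000284024, 1 of 2 rows with that name), at distances of 0.0444, 0.0498 and 0.0521, with log2 fold changes of 0.12, 0.09 and 0.06, none of which was called. With 2 groups the measure mainly finds genes of like fold change.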

How the data were processed

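Per the file headers and values, the deposited table holds raw whole-number counts for each gene in 6 libraries, without pooling. The submitters' processing notes name cutadapt 1.16, STAR 2.5.2a, featureCounts 1.6.2, DESeq2 1.28.1 and hg38, without roles. The annotation, strand setting and treatment of reads mapping to several places are not given in the sources used here. Columns were matched to libraries by title. All 58735 identifiers matched GENCODE 29, which gave positions, exons and transcript sequences. The reference transcript was the best APPRIS rank, then the longest.

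Counts were tested in edgeR 4.0.16 (R 4.3.3): filterByExpr with a minimum count of 10, TMM scaling, robust quasi-likelihood fit on group alone, Benjamini-Hochberg adjustment over 16591 genes, called at adjusted p under 0.05. The SE is the absolute log2 fold change over the square root of F. The procedure was checked on simulated counts of 3 libraries against 3. There few genes were changed, as many up as down, with the same spread set for every gene. In the data 71.7% of genes were called, so the check does not show how the scaling behaves here. CPM used each library's summed counts over the 16591 genes that passed the filter, multiplied by TMM factors of 0.926 to 1.08. Alternatives used DESeq2 1.42.0, limma 3.58.1 (voom, or cyclic loess on log2 CPM), other scalings, filters, a replicate block and omitted libraries.

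Besides the 8 members, SON, PLK4 and CETN2, the text names in each list the 2 genes with the smallest adjusted p and the first 2 in list order that were not called, and the 3 genes nearest to each extreme member among protein-coding genes whose log2 CPM averaged at least 1. The members and lists were chosen with earlier results of these data known. Splicing was not analysed here.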

Additional observations from a re-analysis of the deposited data

How the results depend on the processing

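The 6 falls kept their direction under all 15 alternatives, and the number of members called lower was 6 in 14 of them and 5 under cyclic loess, which lost CEP83 (-0.21); no alternative called a member higher. Without both libraries numbered 1, an alternative chosen after seeing the data, 6 members and 11806 genes in all were called. Over the alternatives the log2 fold change ran from -4.38 to -3.66 for FBF1, -3.03 to -2.57 for LRRC45, -1.15 to -0.83 for ANKRD26, -1.01 to -0.69 for SCLT1, -0.88 to -0.62 for CEP164 and -0.62 to -0.21 for CEP83. Library size alone shifted the median of all genes from -0.03 to -0.22; relative to it CEP89 and TTBK2 (-0.10 and -0.11) stayed above the median. Library size alone also called 7 genes of the assembly base and 1 of the PIDDosome, and gave -0.14 for C2CD3, -0.10 for FAM92A, -0.062 for SNAP29, -0.0007 for CASP2, -0.15 for CRADD, -0.081 for CTCF, -0.11 for POLDIP2 and -0.13 for HSPA14. Cyclic loess gave -0.035 for CEP89 and CETN2, 0.054 for OFD1, -0.14 for C2CD3, -0.023 for SNAP29, -0.045 for CTCF, -0.17 for POLDIP2 and -0.020 for HSPA14. A mean count of at least 50 gave -0.0038 for C2CD3, -0.010 for CRADD and 1 PIDDosome gene called, as did DESeq2 and limma-voom. Omitting 1 library at a time gave 1 to 2 PIDDosome genes called, -0.021 to 0.0899 for C2CD3, -0.088 to 0.0038 for NCS1, -0.025 to 0.12 for CRADD and -0.31 to 0.028 for CNTRL. The cause of these moves was not tested.

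Same-numbered libraries deviated together weakly (correlations 0.194, 0.0461 and 0.118, against -0.138 to 0.0286 for other pairs). Each library correlated best with its own number, a hint from the data. Sample numbers in the column headers are also adjacent within each replicate number, but what that number stands for is not given. With the replicate number as a block 12313 genes were called, against 11888, and 6 members fell, with log2 fold changes of -4.19 (FBF1), -2.84 (LRRC45), -0.96 (ANKRD26), -0.82 (SCLT1), -0.68 (CEP164) and -0.42 (CEP83), and 0.10 for CEP89 and 0.09 for TTBK2. The block also called SNAP29, CCNF and CEP78 (edgeR adjusted p 0.0295, 0.00715 and 0.00708). At this depth FBF1 in siSON rests on 13 to 19 counts a library.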
